A study of Mus musculus with 12 samples.

Results

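Arg1, Chil3, Retnla, Mrc1, Mgl2, Clec10a, Il4ra and Stab1 are 8 mouse genes used as markers of alternatively activated macrophages. They were taken from 19505 genes with a symbol, on an array of 22206 probe sets, by their gene symbol in the platform annotation. Each of the 8 has 1 probe set, so no choice between probe sets was needed. The tumors grew in A/J mice inoculated with neuroblastoma cells, and total RNA of the frozen, ground tissue was hybridised to Affymetrix Mouse Clariom S arrays. The groups were 3 tumors 24 h, 3 tumors 48 h and 3 tumors 72 h after high-intensity focused ultrasound (HIFU), which breaks tissue up mechanically, and 3 tumors that received no treatment. The labels give hours without naming their starting point, which is read here as the HIFU exposure. They name neither the neuroblastoma line nor the age or sex of the mice, and no sham exposure is among the groups. They also do not say that each sample came from a different animal, so the p-values below measure the spread between these samples.

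Macrophages exposed to interleukin-4 or interleukin-13 signal through the receptor chain encoded by Il4ra and the transcription factor STAT6, and take on a state named alternative activation, which is prominent in wound repair and in many tumors. Its markers in the mouse are an arginine-hydrolysing enzyme, small secreted proteins and a group of surface lectins and scavenger receptors. None of the 8 genes is exclusive to macrophages. Arg1 is best known from liver, Chil3 is also made by neutrophils and their marrow precursors, and Mrc1 and Stab1 are also found on some endothelial cells.

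RefSeq promoters of build GRCm38.p6, each of 300 bases with 250 before the gene's start and 50 after it, were on hand for Chil3, Retnla, Mrc1, Mgl2, Il4ra and Stab1, which is 6 of the 8 genes. They were searched for TTCNNNNGAA, the spacing that STAT6 favours, and for TTCNNNGAA, the spacing that other STAT factors favour. Both motifs are their own reverse complements, so one search covers both strands. Among 32851 promoters of the same length in the table, 7.0% held the motif with 4 middle bases, 8.3% the motif with 3, and 14.6% at least 1 of them. Chil3 and Retnla each held 1 match, with 4 middle bases in Retnla and 3 in Chil3. Only the match in Retnla has the spacing that STAT6 favours. Both genes are known STAT6 targets, and they are shown because at 72 h Chil3 had the largest and Retnla the smallest difference of the 8. The capitals mark the match, TTCTTAGAA in Chil3 (chr3:106167515-106167814, minus strand), 172 to 164 bases before the start, and TTCACAAGAA in Retnla (chr16:48842359-48842658, plus strand), 145 to 136 bases before it.
Chil3: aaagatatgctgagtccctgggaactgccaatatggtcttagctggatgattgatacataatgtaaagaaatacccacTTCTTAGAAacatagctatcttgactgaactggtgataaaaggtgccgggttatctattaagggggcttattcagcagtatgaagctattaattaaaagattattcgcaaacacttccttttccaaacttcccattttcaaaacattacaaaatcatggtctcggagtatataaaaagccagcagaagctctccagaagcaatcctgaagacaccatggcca
Retnla: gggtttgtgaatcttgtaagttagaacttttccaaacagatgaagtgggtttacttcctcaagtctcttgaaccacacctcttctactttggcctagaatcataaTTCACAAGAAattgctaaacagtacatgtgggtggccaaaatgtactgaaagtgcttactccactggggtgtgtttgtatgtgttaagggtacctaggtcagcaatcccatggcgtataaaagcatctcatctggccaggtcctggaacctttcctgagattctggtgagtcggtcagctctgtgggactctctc
The windows of Mrc1, Mgl2, Il4ra and Stab1 do not hold these letters. A match describes the sequence and was not tested as a binding site.

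Over all 12 arrays the median log2 signal lay between 5.43 and 5.68, and arrays of 1 group correlated with r between 0.951 and 0.993. On the first principal component, with 43.6% of the variance, replicate 2 of the 72 h group lay at one end (126.1) and untreated replicate 2 at the other (-78.9). Neuroblastoma genes overlapped in all groups: the mean of 13 measured markers was 11.08 to 12.58 at 24 h, 11.04 to 12.36 at 48 h and 9.89 to 12.57 at 72 h, against 10.58 to 12.77 in untreated tumors. The tumors differed in transcripts of skeletal muscle, the mean of 18 muscle genes being 13.06 to 16.29 at 24 h, 13.60 to 15.34 at 48 h and 13.01 to 16.53 at 72 h, against 9.33, 10.15 and 12.86 in untreated replicates 1, 2 and 3. Signals of different probe sets have different efficiencies, so the level of 1 gene is not set against that of another.

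The 8 genes had higher group means after HIFU than in untreated tumors at every time, by between 0.01 and 5.56 on the log2 scale, with the largest differences in Arg1, Mrc1 and, at 48 h and 72 h, Chil3. None of these differences passed limma's test at an adjusted p of 0.05. The count was 0 of 8 genes at 24 h, where 0.054% of all probe sets passed, 0 of 8 at 48 h (0.0045% of all), 0 of 8 at 72 h (0.00901% of all) and 0 of 8 for the mean of the HIFU groups (0.018% of all). At an unadjusted p under 0.05 the counts were 3, 5 and 5 genes at 24, 48 and 72 h and 5 for the mean of the HIFU groups, all in the higher direction. With untreated replicate 3 left out, 1 gene passed at 72 h (Chil3, 5.57, adjusted p = 0.0409), and 194 probe sets passed in place of 2. The median difference of the 8 genes was 1.11, 1.27 and 1.32 at 24, 48 and 72 h, against -0.003, 0.007 and -0.053 over all named genes, given here with no test. The sign depended on the scale for some genes. At 72 h, Retnla turned to -0.13 when each array was centred on its median, and relative to the mean of the macrophage lineage genes Retnla, Mgl2, Clec10a, Il4ra and Stab1 turned negative, at between -1.56 and -0.24, as did Il4ra at 48 h (-0.0545). That last scaling moved the median of all probe sets at 72 h by as much, to -1.625, and relative to that median the 5 genes were as before.

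**Figure D1:**
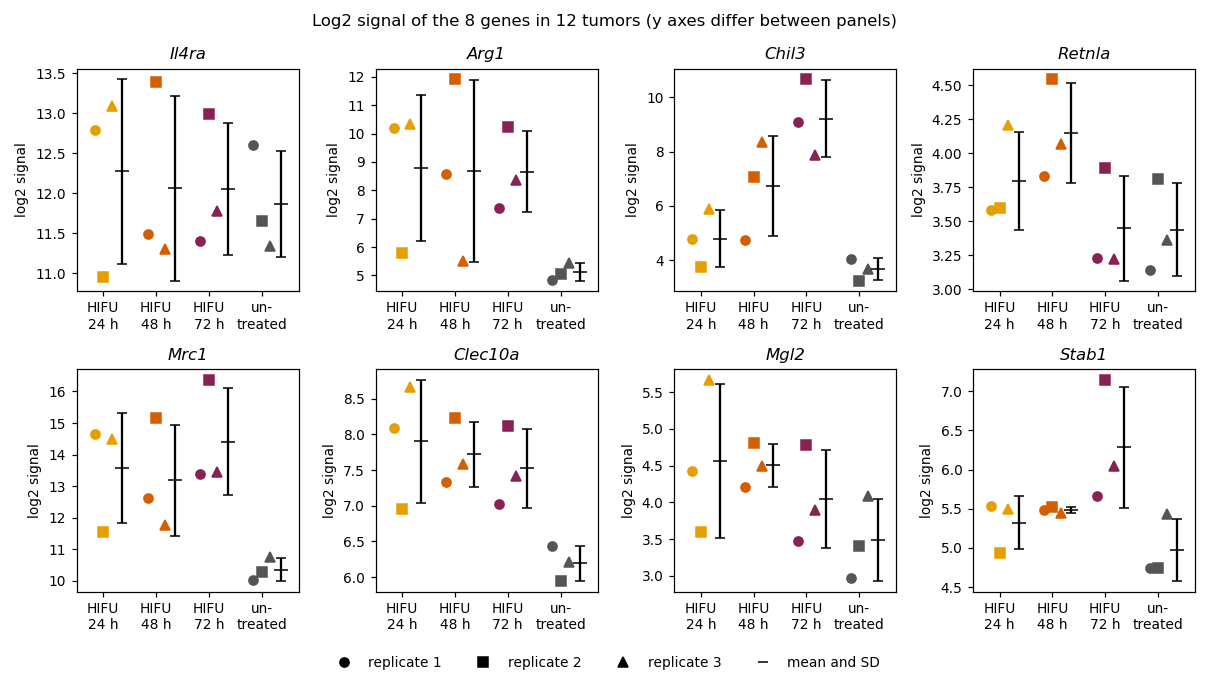
Log2 signal (vertical axes, scaled separately) of the 8 genes in each tumor, by group (HIFU 24 h, 48 h, 72 h, then untreated), with symbols for the replicate and a bar for the mean and SD of 3 arrays. Arg1, Mrc1 and Clec10a have all 9 HIFU points above the 3 untreated points, while Il4ra has overlapping groups at each time.

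Il4ra encodes the chain shared by the receptors for interleukin-4 and interleukin-13. Its log2 signal was 12.79, 10.95 and 13.09 at 24 h, 11.49, 13.39 and 11.31 at 48 h, and 11.41, 12.99 and 11.78 at 72 h, against 12.61, 11.66 and 11.34 in untreated tumors. The groups overlapped at every time, with replicate 2 of the 24 h group the lowest of all 12 and replicate 2 of the 48 h group the highest. The differences from untreated tumors were 0.41 at 24 h, 0.19 at 48 h and 0.19 at 72 h, with adjusted p of 0.875, 0.93 and 0.958. At 72 h the 95% confidence interval ran from -1.31 to 1.69.

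Arg1 encodes arginase 1, which splits arginine into ornithine and urea. Its signal was 10.20, 5.80 and 10.34 at 24 h, 8.56, 11.94 and 5.52 at 48 h, and 7.39, 10.22 and 8.37 at 72 h, against 4.85, 5.06 and 5.45 in untreated tumors. All 9 HIFU arrays lay above the 3 untreated arrays, but replicate 2 at 24 h and replicate 3 at 48 h did so by 0.35 and 0.07. The SD within these groups was 2.58 and 3.21, against 0.304 in untreated tumors. The difference was 3.66 ± 1.51 (SE) at 24 h, a 12.6-fold ratio, with almost the same size at 48 h (3.55) and at 72 h (3.54), at adjusted p of 0.471, 0.347 and 0.415. Without replicate 2 of the 48 h group the 48 h difference of Arg1 was 1.92.

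Chil3 encodes the chitinase-like secreted protein Ym1, which is used as a sign of alternative activation and forms crystals in inflamed lung. Its signal was 4.77, 3.74 and 5.87 at 24 h, 4.73, 7.08 and 8.35 at 48 h, and 9.08, 10.69 and 7.86 at 72 h, against 4.05, 3.24 and 3.67 in untreated tumors. Replicate 2 at 24 h lay within the untreated range, and at 72 h the lowest array lay 3.81 above the highest untreated one. The difference from untreated tumors was 1.14 ± 0.90 (SE) at 24 h (adjusted p = 0.707), 3.07 ± 0.90 at 48 h (0.228) and 5.56 ± 0.90 at 72 h (0.135), the last a 47.1-fold ratio with a 95% confidence interval of 3.58 to 7.53. The 24 h difference was 0.60 without replicate 3 of that group. The unadjusted p at 72 h, 6.11e-05, had rank 9 among the 22206 probe sets.

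Chil3 was the gene of the 8 with the widest differences between times. At 72 h it was 4.42 ± 0.90 (SE) above 24 h and 2.49 ± 0.90 above 48 h, with adjusted p of 0.455 and 0.746, and at 48 h it was 1.93 above 24 h (adjusted p = 0.999). No probe set passed between times (0% at 48 h against 24 h, 0% at 72 h against 48 h and 0% at 72 h against 24 h), and among the 8 genes the unadjusted p was under 0.05 for 0, 3 and 2. For the others the difference between 72 h and 24 h was between -0.51 and 0.96.

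Retnla encodes RELM alpha, a small secreted protein of alternatively activated macrophages in the mouse. Its signal was 3.58, 3.60 and 4.21 at 24 h, 3.83, 4.55 and 4.07 at 48 h, and 3.23, 3.89 and 3.22 at 72 h, against 3.14, 3.81 and 3.36 in untreated tumors. The probe set was dim, its mean of 3.71 lying just above the level, 3.55, below which the dimmest 25% of probe sets fall. Only the 48 h arrays all lay above the untreated ones, the lowest of them by 0.02. The differences were 0.36 at 24 h, 0.71 at 48 h and 0.01 at 72 h, with adjusted p of 0.722, 0.342 and 0.996.

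The correlation of Retnla with Chil3 over the 12 arrays was 0.174. Its neighbour on chromosome 16, Retnlg, a related gene of neutrophils that is named here after its values were seen, had signals of 11.85, 6.23 and 11.70 at 24 h, 7.09, 13.54 and 11.55 at 48 h, and 14.47, 16.08 and 12.67 at 72 h, against 5.21, 3.30 and 3.93 in untreated tumors. All 9 HIFU arrays of Retnlg exceeded the untreated ones, while the Retnla signal stayed between 3.22 and 4.55 in them.

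Mrc1 encodes the mannose receptor CD206, an endocytic lectin. Its signal was 14.64, 11.55 and 14.49 at 24 h, 12.62, 15.16 and 11.75 at 48 h, and 13.39, 16.38 and 13.46 at 72 h, against 10.01, 10.28 and 10.75 in untreated tumors. All 9 HIFU arrays lay above the untreated ones, the closest, replicate 2 at 24 h, by 0.8 over the highest of them, and the farthest, replicate 2 at 72 h, by 5.63. The difference was 3.21 ± 1.05 (SE) at 24 h, 2.83 ± 1.05 at 48 h and 4.06 ± 1.05 at 72 h, the last a 16.7-fold ratio, with adjusted p of 0.381, 0.301 and 0.278. Without replicate 2 of the 48 h group the 48 h difference of Mrc1 was 1.84.

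Clec10a and Mgl2 lie next to each other on chromosome 11 and encode galactose-type lectins of macrophages and dendritic cells. Clec10a had signals of 8.09, 6.96 and 8.66 at 24 h, 7.34, 8.23 and 7.59 at 48 h, and 7.03, 8.12 and 7.42 at 72 h, against 6.43, 5.94 and 6.21 in untreated tumors. All 9 HIFU arrays were higher than the untreated ones, and the spread within groups was narrower than for Arg1 or Mrc1. The difference was 1.71 ± 0.43 (SE) at 24 h, 1.53 ± 0.43 at 48 h and 1.33 ± 0.43 at 72 h, with adjusted p of 0.261, 0.224 and 0.323, and for the mean of the HIFU groups 1.52 ± 0.35 (adjusted p = 0.127).

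Mgl2 had signals of 4.42, 3.59 and 5.67 at 24 h, 4.21, 4.80 and 4.50 at 48 h, and 3.47, 4.78 and 3.89 at 72 h, against 2.97, 3.40 and 4.08 in untreated tumors. The groups overlapped at 24 h and 72 h and were apart by 0.13 at 48 h. Its differences of 1.08, 1.02 and 0.56 had adjusted p of 0.525, 0.409 and 0.743, and the 24 h difference was 0.52 without replicate 3 of that group. Across the 12 arrays it correlated with its neighbour Clec10a at 0.848. Probe sequences were not used, so cross-hybridisation between the Clec10a and Mgl2 transcripts was not tested. The Mgl2 probe set was dim, its mean of 4.15 lying at percentile 35.6 of all probe sets.

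Stab1 encodes stabilin-1, a scavenger receptor of tissue macrophages and sinusoidal endothelium. Its signal was 5.53, 4.93 and 5.5 at 24 h, 5.49, 5.52 and 5.44 at 48 h, and 5.66, 7.15 and 6.04 at 72 h, against 4.74, 4.74 and 5.43 in untreated tumors. The 48 h arrays cleared the highest untreated array by as little as 0.01, and those at 72 h were all higher, replicate 2 most. The differences were 0.35 at 24 h, 0.51 at 48 h and 1.31 ± 0.36 (SE) at 72 h, with adjusted p of 0.782, 0.559 and 0.29.

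**Figure D2:**
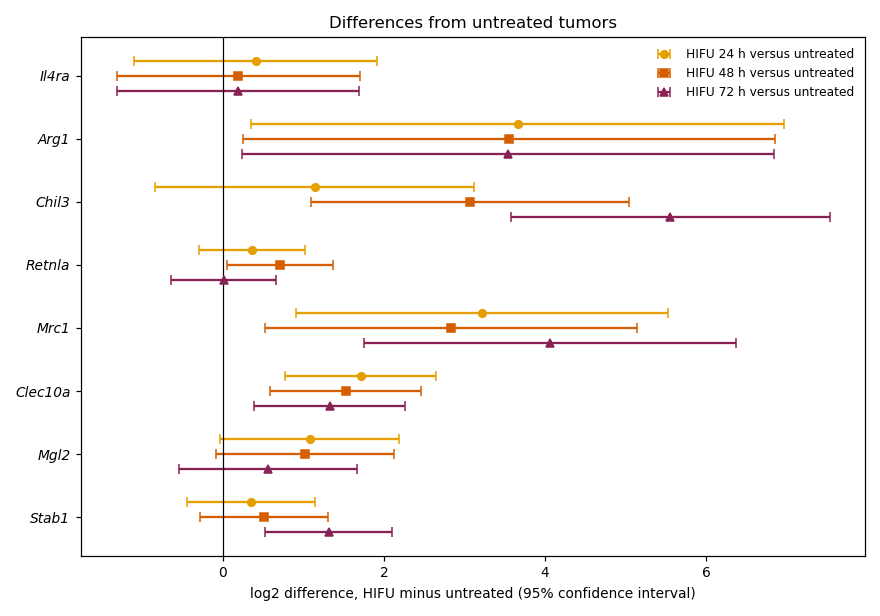
Log2 difference from untreated tumors (horizontal axis) with its 95% confidence interval for each gene at 24 h, 48 h and 72 h, from limma. All intervals of Arg1, Mrc1 and Clec10a lie to the right of 0 and those of Il4ra cross it, while the Chil3 estimates are 1.14, 3.07 and 5.56.

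Counted by non-overlap, all 3 HIFU arrays exceeded all 3 untreated arrays for 3 of the 8 genes at 24 h (Arg1, Mrc1, Clec10a), where 6.84% of all probe sets did so. At 48 h this held for 7 genes, all but Il4ra, against 10.3% of all probe sets, and at 72 h for 5 (Arg1, Chil3, Mrc1, Clec10a, Stab1), against 8.99%. The 48 h arrays cleared the highest untreated array by as little as 0.01 for Stab1, 0.02 for Retnla, 0.07 for Arg1 and 0.13 for Mgl2. For Chil3, Clec10a and Mrc1 the gap was 0.68, 0.91 and 1.0. All 9 HIFU arrays were above all untreated arrays for 3 genes (Arg1, Mrc1, Clec10a), against 1.76% of all probe sets. The genes move together over the arrays, so these counts are not 8 separate observations.

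Within groups the genes tended to be high or low in the same tumors. Replicate 2 was the lowest of its group for 7 of the 8 genes at 24 h, whereas it was the highest for 7 at 48 h and for all 8 at 72 h. At 24 h, replicate 2 exceeded all untreated arrays for 3 genes, against 7 and 8 for replicates 1 and 3. After group means were taken out, Arg1 and Mrc1 correlated at 0.936 and Clec10a and Il4ra at 0.91, while Arg1 and Chil3 correlated at 0.17. These correlations are descriptions over 12 arrays that share group sizes and tissue makeup.

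The same tumors also stood out in the lists of cell type genes. In replicate 2 at 24 h the mean of 17 macrophage lineage genes differed from the untreated mean by -1.69 and that of 12 fibroblast genes by 0.18, against 3.31 and 4.25 in replicate 2 at 72 h. The muscle gene mean in these arrays was 2.28 and 5.75 above the untreated mean. Lists of muscle, fibroblast, adipocyte and endothelial genes were higher after HIFU as well, with 0 of their genes passing. The median difference at 24, 48 and 72 h was 3.85, 3.48 and 3.76 over 18 muscle genes. It was 2.16, 2.26 and 2.77 over 12 fibroblast genes and 1.02, 1.56 and 1.67 over 9 adipocyte genes. Over 13 endothelial genes it was 0.78, 0.51 and 0.62. Other lists differed less or in both directions, also with 0 genes passing. The median was -0.10, 0.06 and 0.16 over 13 dendritic cell genes and -0.28, -0.15 and 0.002 over 10 T cell genes. It was 0.42, 0.23 and 0.15 over 7 B cell genes and 0.335, 0.338 and 0.83 over 12 eosinophil and mast cell genes. Dcn, which encodes the fibroblast proteoglycan decorin, differed by 3.55, 3.90 and 4.79 (adjusted p = 0.433, 0.268 and 0.29), and Fabp4, a fatty acid carrier of adipocytes, macrophages and endothelium, by 3.81, 2.73 and 2.35 (0.242, 0.264 and 0.374). The part of these cells in the differences of the 8 genes was not tested, apart from a fit with the muscle mean as a covariate.

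**Figure D3:**
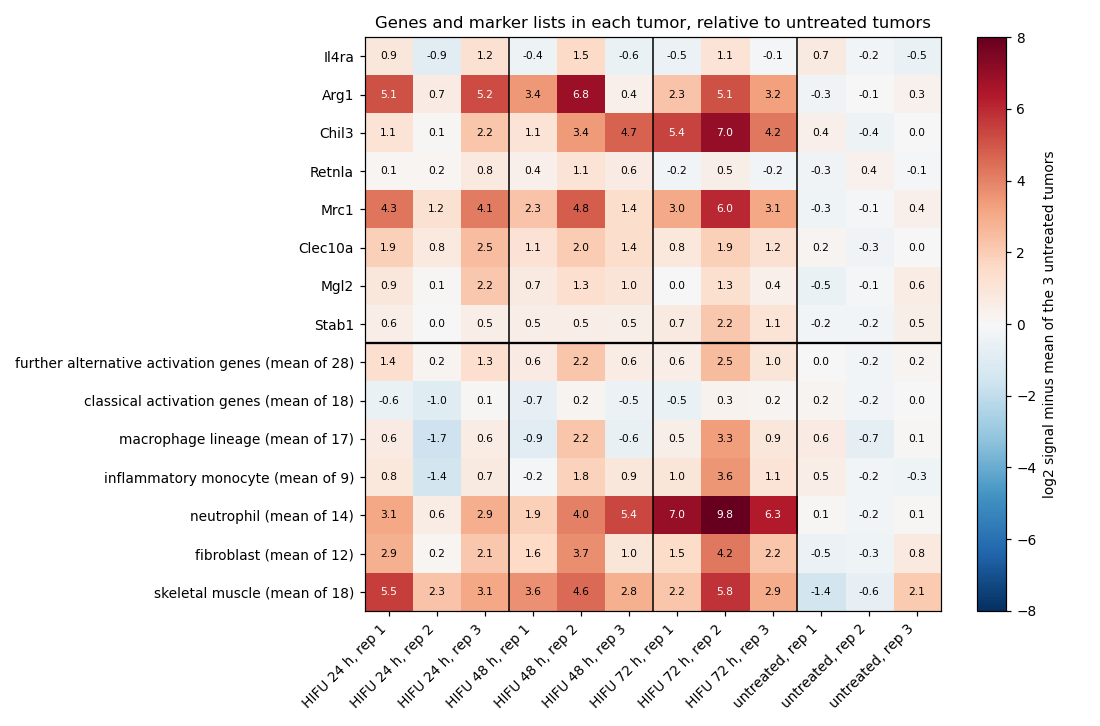
Log2 signal of each gene, and mean log2 signal of each gene list, in each tumor minus the mean of the 3 untreated tumors (color and printed value), with columns for HIFU 24 h, 48 h, 72 h and untreated arrays. Replicate 2 at 24 h is pale for most genes and lists, replicate 2 at 48 h and at 72 h is dark for most, and the neutrophil row is darkest in the 72 h columns. The inflammatory monocyte list includes Chil3.

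Macrophage lineage genes overlapped between HIFU and untreated tumors as a group, also at 24 h and 48 h, where Arg1, Mrc1 and Clec10a did not. Their mean signal was 6.82 to 9.16 at 24 h, 7.60 to 10.75 at 48 h and 8.97 to 11.82 at 72 h, against 7.80 to 9.16 in untreated tumors, and 0 of 17 measured genes passed at any time. The median difference was -0.31 at 24 h, 0.17 at 48 h and 1.78 at 72 h. At 24 h, Adgre1, which encodes an adhesion receptor of mature mouse macrophages, differed by -0.60 (adjusted p = 0.811) and Cybb, the phagocyte oxidase subunit, by -2.12 (0.596), while Lyz2, the lysozyme of myeloid cells, differed by 2.41 (0.539). At 72 h the 3 genes differed by 1.27, 2.43 and 4.56, with adjusted p of 0.524, 0.486 and 0.275. Mertk, a receptor for the uptake of dead cells, differed by 1.50, 1.06 and 1.94 at 24, 48 and 72 h (adjusted p = 0.493, 0.506 and 0.338). In whole tissue, more cells of a type and more RNA per cell cannot be told apart.

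With the macrophage lineage mean as a covariate, an alternative chosen after seeing the data, 3 genes passed at 24 h (Arg1 3.87, Mrc1 3.37 and Clec10a 1.77, adjusted p = 0.0247, 0.00251 and 0.00401) and 2 at 48 h (Mrc1 2.58 and Clec10a 1.43, adjusted p = 0.0214 and 0.0236). At 72 h 0 passed. In this fit 672, 412 and 14 of all probe sets passed at 24, 48 and 72 h. With the muscle mean as a covariate, 0 of the 8 genes passed at any time, and the difference for the mean of the HIFU groups was 0.48 for Arg1, 0.78 for Mrc1 and 0.88 for Clec10a, against 3.58, 3.37 and 1.52 without it, while that of Chil3 was 2.59 against 3.25. In the same fit the difference for the mean turned to -0.64 for Il4ra, -0.18 for Stab1 and -0.0251 for Mgl2, and that of Il4ra and Stab1 was negative at 24 h (-0.49 and -0.55) and 48 h (-0.72 and -0.40) too. Every HIFU array had a higher muscle mean than every untreated array, so muscle content and HIFU cannot be told apart here.

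**Figure D4:**
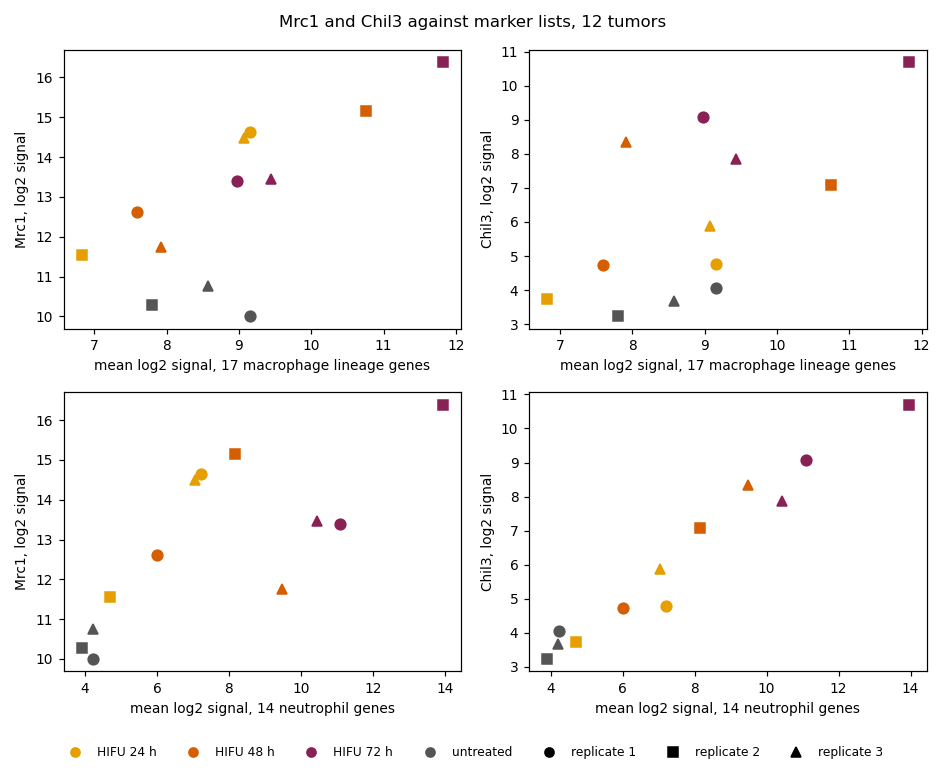
Log2 signal of Mrc1 (left) and Chil3 (right) in each tumor against the mean log2 signal of 17 macrophage lineage genes (top) and 14 neutrophil genes (bottom), with colors for the group and symbols for the replicate. HIFU tumors have higher Mrc1 than untreated tumors. The macrophage means of HIFU tumors run from 6.82 to 11.82, beyond the 7.80 to 9.16 of untreated tumors on both sides. The 4 tumors with the highest neutrophil mean are the 4 with the highest Chil3.

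Of the cell type lists, neutrophil genes had the largest median difference at 72 h, 6.98. The mean of 14 measured genes was 4.71 to 7.21 at 24 h, 6.01 to 9.48 at 48 h and 10.43 to 13.95 at 72 h, against 3.91 to 4.23 in untreated tumors. One of them passed, Lcn2, the iron-chelating lipocalin of granules and of the acute phase, which rose by 7.46, 8.09 and 10.41 at 24, 48 and 72 h (adjusted p = 0.00589, 0.00512 and 0.000348). Ngp, a granule protein of maturing neutrophils, was 4.17, 3.13 and 4.57 at 24 h, 3.43, 4.79 and 13.25 at 48 h, and 15.76, 17.65 and 14.14 at 72 h, against 3.02, 3.13 and 3.06 in untreated tumors. S100a9, a calcium-binding protein of neutrophils and monocytes, differed by 3.75, 5.96 and 9.83 (adjusted p = 0.429, 0.202 and 0.0876), and Ltf, the granule protein lactoferrin, by -0.16, 1.59 and 7.24 (0.971, 0.503 and 0.0789). The 4 arrays in which Ngp was at 13.25 or higher are those in which Chil3 was at 7.86 or higher. The inflammatory monocyte list, whose 9 measured genes include Chil3, had median differences of 0.30, 1.17 and 2.4 at 24, 48 and 72 h. In it 5, 7 and 8 genes were above untreated tumors, beside 9687, 9871 and 8572 of all 19505 named genes, and 0 passed. The part of neutrophils and of monocytes in the Chil3 signal was not tested.

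Chil4, the gene next to Chil3 and its close relative, encodes Ym2. Its signal was 2.74, 2.52 and 3.05 at 24 h, 2.5, 3.22 and 4.83 at 48 h, and 5.58, 6.65 and 4.79 at 72 h, against 3.64, 2.92 and 2.43 in untreated tumors. The arrays at 4.79 or higher are the same 4, and the 72 h difference of 2.68 had an adjusted p of 0.255. Probe sequences were not used here, so cross-hybridisation between the Chil3 and Chil4 transcripts was not tested.

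Among 28 measured further genes of alternative activation 0 passed at any time, with 23, 26 and 24 above untreated tumors at 24, 48 and 72 h, beside 9687, 9871 and 8572 of all 19505 named genes, and median differences of 0.59, 0.73 and 1.17. The scavenger receptor gene Cd163 was 9.82, 7.41 and 10.12 at 24 h, 8.62, 10.04 and 7.33 at 48 h, and 6.83, 10.62 and 9.03 at 72 h, against 4, 5.09 and 5.18 in untreated tumors. Its groups did not overlap, and the differences were 4.36, 3.91 and 4.07 (adjusted p = 0.213, 0.206 and 0.262). F13a1, the transglutaminase subunit of coagulation factor XIII, differed by 3.31, 3.30 and 3.86, with adjusted p of 0.338, 0.233 and 0.275. Cd36, a fatty acid and scavenger receptor that adipocytes and muscle also make, differed by 3.52, 3.26 and 2.94 (adjusted p = 0.302, 0.238 and 0.334). Some members lay on the lower side, among them, named after their values were seen, Il10, the anti-inflammatory cytokine gene, at -1.04, -1.03 and -0.62 (adjusted p = 0.407, 0.279 and 0.545), and Tfrc, the transferrin receptor gene, at -1.31, -1.04 and -0.53 (0.335, 0.304 and 0.662).

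Genes of classical activation, the state set off by interferon gamma and bacterial products, went in both directions. Of 18 measured, 0 passed, and 12, 13 and 10 were below untreated tumors at 24, 48 and 72 h, beside 9790, 9608 and 10904 of all 19505 named genes, so that the share at 72 h was that of all genes. The median differences were -0.52, -0.47 and -0.26. Nos2, a common marker of this state, was not on the list and is not in these counts. Its differences, given below with the arginine genes, were 1.19, 1.27 and 0.93 (adjusted p = 0.731, 0.611 and 0.802). Cxcl9, a chemokine induced by interferon gamma, was 4.86, 3.83 and 6.13 at 24 h, 5.35, 9.14 and 10.50 at 48 h, and 8.41, 11.33 and 10.91 at 72 h, against 11.47, 9.40 and 9.77 in untreated tumors. Only the 24 h arrays were all lower, by -5.27 (adjusted p = 0.213). Irf1, the interferon-induced transcription factor, differed by -2.03, -0.83 and -1.04 at 24, 48 and 72 h (adjusted p = 0.254, 0.49 and 0.463), and Cxcl11, a related chemokine, by -0.90, -0.90 and -0.63 (0.277, 0.218 and 0.365). Members on the higher side, named after their values were seen, included Ptgs2, the inducible cyclooxygenase, at 3.35, 1.95 and 1.26 (adjusted p = 0.472, 0.562 and 0.805), the costimulatory ligand gene Cd80 at 0.99, 1.18 and 1.17 (0.592, 0.392 and 0.464), and Il1b, which encodes interleukin-1 beta, at 0.84, 1.11 and 1.71 (0.863, 0.754 and 0.684).

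Of interleukin-4 and interleukin-13 signalling, 22 further genes were measured and 0 passed, with median differences of 0.20, 0.03 and 0.20. Of the 22, 4, 11 and 6 were below untreated tumors at 24, 48 and 72 h, beside 9790, 9608 and 10904 of all 19505 named genes. Il4 stayed between 2.67 and 3.19 in the HIFU arrays and between 2.80 and 2.96 in untreated tumors, and Il13 between 3.73 and 4.52 in the HIFU arrays and between 3.96 and 4.37 in untreated tumors. Both overlapped between the groups, and Il4 lay below 3.55, the limit of the dimmest 25% of probe sets, in all 12 arrays. Il13ra1, the other chain of the receptor for interleukin-13, differed by 1.50, 1.82 and 1.69 at 24, 48 and 72 h (adjusted p = 0.536, 0.325 and 0.416), and Stat6 by 0.14, 0.13 and 0.59 (0.923, 0.911 and 0.58). Socs1, a brake on cytokine receptors, was lower in all 9 HIFU arrays, at 3.48 to 3.90, than in untreated tumors, at 4.33 to 4.43, and differed by -0.82, -0.61 and -0.79 (adjusted p = 0.204, 0.228 and 0.255). Its HIFU values lay around the limit of 3.55, and the gene is also on the classical activation list. Irs2 differed by -1.49, -1.98 and -1.29 (adjusted p = 0.637, 0.397 and 0.66).

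Around arginase, 13 genes of arginine metabolism were measured and 0 passed, with median differences of 0.17, 0.03 and 0.21 at 24, 48 and 72 h. Of the 13, 5, 6 and 5 were below untreated tumors, beside 9790, 9608 and 10904 of all 19505 named genes. Slc7a2, which encodes an arginine transporter, was 6.94, 5.38 and 5.16 at 24 h, 4.77, 5.85 and 6.49 at 48 h, and 4.85, 7.77 and 5.04 at 72 h, against 3.65, 3.75 and 3.95 in untreated tumors. All 9 HIFU arrays were higher, with differences of 2.04, 1.92 and 2.10 (adjusted p = 0.418, 0.309 and 0.351). Nos2, the inducible nitric oxide synthase that competes for arginine, differed by 1.19, 1.27 and 0.93 (adjusted p = 0.731, 0.611 and 0.802) with overlapping groups. Arg2, the mitochondrial arginase, differed by 0.58, 0.82 and 1.14 (adjusted p = 0.77, 0.562 and 0.489), and Oat, which takes ornithine toward proline, by 0.88, 0.91 and 1.34 (0.572, 0.416 and 0.342). On the lower side, Ddah2 differed by -0.68, -1.07 and -1.07 (adjusted p = 0.587, 0.286 and 0.351). Slc7a1 differed by -0.75, -1.17 and -0.68 (0.703, 0.417 and 0.732) and Asl by -0.22, -1.20 and -0.92 (0.919, 0.369 and 0.555).

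The genes whose pattern over the 12 arrays was most like each of the 8, by Pearson's r, differed between them. Mrc1 was most like Dcn (0.984) and Postn (0.979), which encode matrix proteins of fibroblasts, and Pgap6 (0.978). Arg1 was most like Lox (0.978), a collagen crosslinking enzyme, Clec4d (0.973), a myeloid lectin, and Tnc (0.971), the matrix protein tenascin-C. Chil3 was most like Mmp8 (0.979), the neutrophil collagenase, Itgb3 (0.966), the integrin subunit of platelets, and Rgs18 (0.965).

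For Clec10a the closest were Serpina3n (0.968), an acute-phase protease inhibitor, Xdh (0.959), xanthine dehydrogenase, and Cd36 (0.959). Stab1 was closest to Myh3 (0.962), the embryonic muscle myosin, Itpkb (0.96) and Megf9 (0.946), and Il4ra to Angptl4 (0.946), a lipase inhibitor, Cd300lf (0.928), a myeloid receptor, and Htr2a (0.926). The dim Mgl2 and Retnla had their closest at 0.95 (Cnih3) and 0.905 (Eepd1). These values rest on 12 arrays that share differences in tissue makeup and are given with no test.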

How the data were processed

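Total RNA of 12 tumors was measured on 12 single-colour arrays. The deposited values table of the series was used as it stands. Its values, 1.75 to 19.93 per probe set, were read as log2 signals from their range, made by the authors with Transcriptome Analysis Console 4.0 per the submitters' processing notes. The summarization, background correction and normalization were not given in these sources, and the number of arrays limits the precision. Genes were named from the platform annotation, in which 19572 probe sets had 1 symbol, 0 several and 2634 none.

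limma 3.58.1 in R 4.3.3 fitted the 4 group means over all 22206 probe sets (lmFit, eBayes), with two-sided tests, Benjamini-Hochberg adjustment over all probe sets and a threshold of 0.05. It was tested on simulated data for the comparison of 24 h with untreated tumors. The noise was drawn separately for each probe set, so variation that probe sets share within a tumor was not simulated. The 8 genes and 16 lists of pathway and cell type genes were chosen with earlier results of these data known. Besides the 8, and genes said to be named after their values were seen, the genes named from a list are among its 4 with the smallest F-test p over the 3 contrasts with untreated tumors and any that passed, from the interleukin and arginine lists any gene, and for each of the 8 the closest genes by Pearson's r. The alternatives were a replicate block, a filter on dim probe sets, quantile normalization, median centring, scaling to macrophage lineage genes, an intensity trend, array weights, only the groups compared, a muscle covariate, leaving out each array and, added later, a macrophage covariate.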

Additional observations from a re-analysis of the deposited data

How the results depend on the processing

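The count of passing genes among the 8 was 0 in the test reported and stayed at 0 in each comparison under the dim-probe filter, quantile normalization, median centring, macrophage scaling, an intensity trend, only the groups compared (not defined for the mean of the HIFU groups) and the muscle covariate. Leaving out each array in turn gave 0 to 1 at 72 h, the 1 being Chil3 without untreated replicate 3, and 0 in the other comparisons. With array weights, 2, 2 and 4 genes passed at 24, 48 and 72 h and 6 for the mean of the HIFU groups, where 1118, 944, 1846 and 3787 of all probe sets passed against 12, 1, 2 and 4. These weights ran from 0.306 for replicate 2 at 72 h to 4.195 for untreated replicate 2. With the macrophage covariate, chosen after seeing the data, 3 and 2 passed at 24 and 48 h and 4 for the mean. Counts over all probe sets also moved by over 1.5 times with the dim-probe filter (4 at 72 h, 15 for the mean), median centring (14 for the mean), macrophage scaling (25, 16, 38 and 49), an intensity trend (14 for the mean), only the groups compared (6 at 48 h), quantile normalization (1 at 72 h), the muscle covariate (0, 0, 1 and 1) and the macrophage covariate (672, 412, 14 and 576). Leaving out 1 array gave 0 to 253, 0 to 312, 1 to 194 and 1 to 398, the highest without untreated replicate 3. Averaging probe sets of a gene changes nothing, since each of the 8 has 1.

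Over all alternatives, single differences turned their sign 46 times, became significant 24 times and kept both 802 times. Relative to macrophage lineage genes, the 72 h differences were -1.56 for Retnla, -1.01 for Mgl2, -0.24 for Clec10a, -1.38 for Il4ra and -0.26 for Stab1. Il4ra was -0.0545 at 48 h and -0.29 for the mean, Retnla -0.19 for the mean, and from 24 h to 72 h Mrc1 differed by -0.88 and Stab1 by -0.76. The median of all probe sets under it was 0.158, -0.238, -1.625 and -0.558 at 24, 48, 72 h and for the mean. Under the muscle covariate, Il4ra was -0.49, -0.72, -0.71 and -0.64 at 24, 48, 72 h and for the mean, Stab1 -0.55 at 24 h, -0.40 at 48 h and -0.18 for the mean, Mgl2 -0.35 at 72 h and -0.0251 for the mean, and Retnla -0.25 at 72 h. Under the macrophage covariate, Retnla was -0.23 and Il4ra -0.86 at 72 h, Il4ra -0.10 for the mean, and Mrc1 -0.91 from 24 h to 72 h. With array weights, Retnla was -0.36 and Il4ra -0.0803 at 72 h and Mrc1 -0.33 from 24 h to 72 h. Median centring gave -0.13 for Retnla at 72 h, with the median of all probe sets at -0.198. The cause was not tested.

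Leaving out 1 array gave Il4ra -0.47 to 0.57 at 48 h, -0.28 to 0.56 at 72 h and -0.0017 to 0.63 for the mean, and Retnla -0.21 to 0.20 at 72 h. It moved some other small differences by over 1.5 times. Mgl2 at 72 h was 0.20 without replicate 2 of that group, and at 24 h Il4ra was 1.07 without replicate 2, Retnla 0.15 without replicate 3, and Stab1 0.58 without untreated replicate 3. From 24 h to 72 h it gave Arg1 -1.61 to 0.66, Mrc1 -0.16 to 1.39, Mgl2 -0.998 to 0.0417 and Il4ra -0.88 to 0.19.

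Samples with the same replicate number deviated from their group means with r between -0.608 and 0.625, over 0.1 in 4 of 18 pairs, so the numbers were not taken to pair them. With the replicate block, 0 of the 8 genes passed in any comparison, and 3, 0, 1 and 1 of all probe sets passed at 24, 48, 72 h and for the mean.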
